A study of Mus musculus with 69 samples.

Results

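Histone genes were examined in newly made RNA of the mouse collecting duct under 2 kidney stressors. The genes were chosen by symbol, as those beginning Hist1h to Hist4h, H1f0, H1fx, H2af or H3f3, which gave 82 of the 24411 genes in the count table. Of these, 68 were clustered histone genes (Hist symbols) and 14 were replication-independent histone genes (H1f0, H1fx, the H2af genes, H3f3a and H3f3b). The clustered genes comprised 6 of class H1, 18 of H2A, 19 of H2B, 12 of H3 and 13 of H4. With at least 2 counts over the 69 libraries required for a test, 58 clustered and 13 replication-independent genes were tested, of 21175 genes in all.

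Histones are the proteins around which DNA is wound. H2A, H2B, H3 and H4 form the core of the nucleosome and H1 binds the linker DNA. Most clustered genes are transcribed when DNA is replicated, and their mRNA ends in a stem-loop instead of a poly(A) tail. The replication-independent genes are expressed throughout the cell cycle and in cells that no longer divide, carry introns in many cases, and give polyadenylated mRNA. Differentiated epithelia such as the collecting duct divide little, and H1f0 in particular is known to accumulate in cells that have left the cycle.

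The libraries were made from kidneys of mice with a Cre-activated Uprt gene, the uracil phosphoribosyltransferase of Toxoplasma gondii, at the Rosa26 locus. Cells with active Cre put the uracil analog 4-thiouracil (4-TU) into the RNA they make, and the labeled RNA was biotinylated and pulled down with streptavidin. All mice received 430 mg/kg of 4-TU 4 hours before harvest. Genotypes were Hoxb7Cre;UPRTf/+, with Cre in the collecting duct, and Atp6b1v1Cre;UPRTf/+ (as the labels spell it; the driver is Atp6v1b1Cre), with Cre mainly in intercalated cells. Control mice were compared with ischemic mice (iAKI, 24 hours after 10 minutes of bilateral pedicle clamping) and with volume-depleted mice (vAKI, 72 hours of restricted water and food). The injury comparisons used mice of 5.5 months. In Hoxb7Cre males there were 4 control, 4 iAKI and 3 vAKI pulldowns, and in Atp6b1v1Cre males 4, 3 and 4. In females there were 4, 3 and 4 for Hoxb7Cre and 4, 3 and 3 for Atp6b1v1Cre. Total kidney RNA of control mice gave 21 libraries, which were compared with 10 Hoxb7Cre and 11 Atp6b1v1Cre control pulldowns, the mice of 3 months included. Some control mice may have given both a pulldown and a total library, and these were fitted as independent.

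Total counts ran from 12618062 to 30305464 per library. Histone genes took 0.0559% to 0.49% of them, or 9320 to 118000 counts. Of 13 collecting duct markers 11 were higher in the Hoxb7Cre control pulldown than in total RNA and 7 in the Atp6b1v1Cre pulldown, where Aqp2 was lower. Of 15 markers of other kidney cells, 13 and 12 were lower, and of 14 leukocyte and red cell markers 7 and 3 were lower and 0 and 3 higher. Of all genes tested, 14.6% and 11.3% were called higher in the 2 pulldowns and 17.9% and 16.4% lower, by the limits given below. The library numbers fell in 3 series, A, B and C, with gaps between them. All male Hoxb7Cre iAKI and vAKI libraries were of series A and their controls of A and B, while the Atp6b1v1Cre vAKI males were 2 of series A and 2 of series B. Among the controls, Hoxb7Cre pulldown replicate 6 (female) and total RNA replicate 12 (female) had the highest summed CPM of clustered genes in their groups, 290.7 and 552.2 (CPM, the usual scaling of counts to library size, here normalized by TMM).

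Of the 68 clustered genes, 54 lay on chromosome 13 between positions 21715763 and 23934851 of GRCm38, 10 on chromosome 3, 3 on chromosome 11 and 1 on chromosome 6. In 63 of them every annotated transcript had 1 exon. The 3′ stem-loop of histone mRNA, written here as a stem of 6 base pairs that starts with GG and ends with the complementary bases after a loop of 4 bases, was found in 46 of the 68. It was found in 1 replication-independent gene, H2afx, and in 0.72% of the other 21843 protein-coding genes. The search covered annotated transcripts only. Some clustered genes without a match had short models, such as Hist1h4k (312 bases) and Hist1h2bl (381). A stem-loop past the annotated end would be missed. The commonest form, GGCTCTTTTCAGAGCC, was carried by 26 histone genes. The stem-loops of genes that the results turn on are shown 5′ to 3′ from the GENCODE vM21 transcripts, with the stem and loop in capitals and 5 flanking bases on each side in lower case. The first 5 were called higher under volume depletion in Hoxb7Cre males, though not in every group, and the last belonged to a gene far lower in pulldown than in total RNA.
Hist1h1c: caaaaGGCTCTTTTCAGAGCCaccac
Hist1h1d: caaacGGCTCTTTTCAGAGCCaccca
Hist1h1e: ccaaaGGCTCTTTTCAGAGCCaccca
Hist3h2ba: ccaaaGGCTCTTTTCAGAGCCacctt
Hist1h4i: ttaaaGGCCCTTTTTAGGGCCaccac
Hist1h4h: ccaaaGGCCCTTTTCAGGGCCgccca
The same 16 letters stood in Hist1h1c, Hist1h1d, Hist1h1e and Hist3h2ba.

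The annotated models of many clustered genes ran on past the stem-loop. They ended at least 100 bases after it in 23 genes, among them Hist1h1c (840 bases), Hist1h1e (1153) and Hist1h1d (4884), and less than 100 bases after it in the other 23. The median count over all 69 libraries was 153 in the genes with the longer models and 35 in those with the shorter ones. The highest were 177770, for Hist1h1c, and 999, for Hist1h4h. These counts are not scaled to length, and longer models hold more bases in which reads are counted. Reads that align to several places were not counted either. Hist1h2ao, Hist1h2ap, Hist1h4m, Hist2h2aa1 and Hist2h2aa2, of the shorter models, had 0 counts. They shared 89.2% to 100% of their 50-base windows with another histone gene. Of the longer models Hist2h3c2 had 0 counts, with 63.5% shared. Hist1h2bc (85113 counts) and Hist2h2be (9061), in which no stem-loop was matched, are outside this comparison. RNA was purified by its poly(A) tail before library preparation, by the study's methods, which selects against histone mRNA that ends at the stem-loop. The part of this selection in any value below was not tested.

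**Figure D1:**
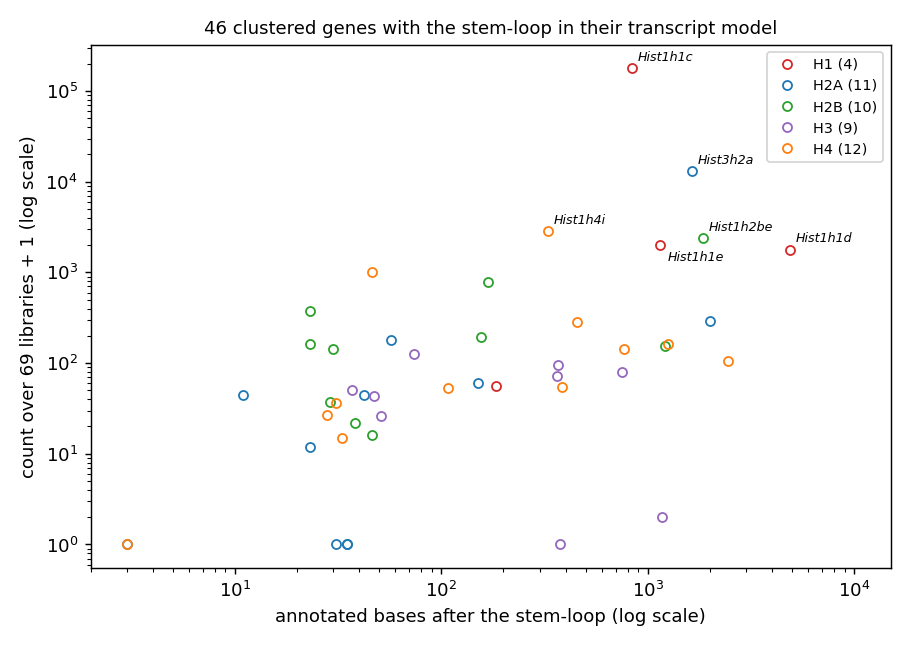
Counts of the 46 clustered histone genes with a stem-loop against the number of annotated bases after it, both on log scales, with 1 point per gene and 1 added to each count. The counts are not scaled to gene length. Genes whose models end under 100 bases past the stem-loop stay at or below 999 counts over 69 libraries, while Hist1h1c, with 840 bases, reaches 177770.

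In RefSeq promoters of GRCm38.p6, from 250 bases before the start to 50 after it, 61 clustered and 11 replication-independent genes were matched. The CCAAT box (CCAAT, either strand) was present in 85.2% of the clustered promoters, 72.7% of the replication-independent ones and 37.9% of all 27025 promoters. Among clustered classes it was least frequent in H4, with 3 of 12. The TATA box (TATAAA) was present in 57.4%, 9.1% and 14.2%. The H1 box (AAACACA) was present in 5 of 6 clustered H1 promoters and in 7.1% of all promoters, and the octamer (ATTTGCAT) in 21.3% of clustered promoters and 1.8% of all. The motifs were searched on both strands and no motif holds the letters of another, although neighboring matches can share bases. A match in a promoter is a description of its letters.

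The promoters of 5 genes are shown for the contrasts among linker histones and between the H3.3 genes that follow below, with all matches of the 4 motifs in capitals on either strand.
Hist1h1c promoter, chr13:23738557-23738856 (+ strand): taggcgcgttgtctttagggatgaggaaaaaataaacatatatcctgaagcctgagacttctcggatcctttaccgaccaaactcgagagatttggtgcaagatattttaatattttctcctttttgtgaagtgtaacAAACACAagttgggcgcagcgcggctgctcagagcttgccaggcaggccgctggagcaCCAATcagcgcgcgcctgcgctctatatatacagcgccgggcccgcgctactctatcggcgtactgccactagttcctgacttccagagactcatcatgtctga
Hist1h1d promoter, chr13:23554782-23555081 (+ strand): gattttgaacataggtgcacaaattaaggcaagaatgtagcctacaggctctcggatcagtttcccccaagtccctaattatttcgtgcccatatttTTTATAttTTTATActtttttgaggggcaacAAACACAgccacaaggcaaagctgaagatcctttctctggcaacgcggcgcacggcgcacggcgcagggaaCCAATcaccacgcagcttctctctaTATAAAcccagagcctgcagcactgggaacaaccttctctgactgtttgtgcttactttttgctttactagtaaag
H1fx promoter, chr6:87981433-87981732 (- strand): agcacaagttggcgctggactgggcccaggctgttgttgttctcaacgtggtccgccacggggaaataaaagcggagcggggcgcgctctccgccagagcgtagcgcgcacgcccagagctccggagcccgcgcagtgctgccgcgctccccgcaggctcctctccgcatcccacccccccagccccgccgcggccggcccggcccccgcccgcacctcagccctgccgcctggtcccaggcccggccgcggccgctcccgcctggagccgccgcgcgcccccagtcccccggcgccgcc
H3f3b promoter, chr11:116024455-116024754 (- strand): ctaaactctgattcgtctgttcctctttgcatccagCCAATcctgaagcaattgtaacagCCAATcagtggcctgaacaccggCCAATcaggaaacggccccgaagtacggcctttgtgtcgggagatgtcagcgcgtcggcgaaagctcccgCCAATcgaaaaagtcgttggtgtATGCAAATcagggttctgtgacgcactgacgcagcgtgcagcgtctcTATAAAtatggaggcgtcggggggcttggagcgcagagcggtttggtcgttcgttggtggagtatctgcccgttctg
H3f3a promoter, chr1:180813556-180813855 (- strand): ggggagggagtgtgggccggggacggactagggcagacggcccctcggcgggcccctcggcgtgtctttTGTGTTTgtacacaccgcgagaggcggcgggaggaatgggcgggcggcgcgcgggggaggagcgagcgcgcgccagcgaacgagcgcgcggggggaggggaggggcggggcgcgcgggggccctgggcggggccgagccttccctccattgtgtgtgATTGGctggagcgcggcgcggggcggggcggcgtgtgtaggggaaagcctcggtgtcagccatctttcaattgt
Hist1h1c had an H1 box at -112 and a CCAAT box at -54 from the start, and Hist1h1d had them at -122 and -51. H3f3b had 4 CCAAT boxes, an octamer at -74 and a TATA box at -27, while H3f3a had a CCAAT box at -24 and an H1 box at -181. H1fx had none of the 4 motifs, nor had H1f0.

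Few histone genes made up most of the histone RNA. Over the 22 male pulldowns H3f3b, one of a pair of genes for the replacement histone H3.3, was at a mean of 695 CPM, or 233.5 CPM per kilobase of exon. H1f0, the linker histone of resting cells, was at 390.3 CPM (189.9 per kilobase). Hist1h1c, which encodes the linker histone H1.2, was at 138.4 CPM (88.72 per kilobase) and stood far above the other clustered genes. Below them per kilobase were Hist1h2bc, an H2B gene, at 18.92, H2afz, for the variant H2A.Z, at 17.33, and H2afv, for a second form of H2A.Z, at 10.54. H3f3a, the other H3.3 gene, was at 9.068, H2afy, for macroH2A, at 8.214, and H2afx, for the H2A.X that is phosphorylated at DNA breaks, at 8.101. In all, 8 clustered and 10 replication-independent genes reached a mean of 1 CPM. The 3 most counted genes of the clustered H3 class, Hist1h3c, Hist1h3e and Hist1h3d, stayed at 0.0762 to 0.117 CPM. H2afy3, annotated as a processed pseudogene, was at 0.0755 CPM, and the X-linked H2afb1 and H2afb3 were at 0.012 and 0.00213 CPM.

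Of the 82 genes, 11 had under 2 counts in all libraries together. Hist1h2bq, Hist1h2br, Hist1h2ao, Hist1h2ap, Hist1h4m, Hist2h3c2, Hist2h2aa1, Hist2h2aa2 and H2afb2 were at 0, and Hist1h2an and Hist2h3c1 had 1 count each. Near-identical copies share their reads, and the counting left out reads that align to several places, so these genes and the others with shared sequence are uncertain. Of the genes described below, Hist1h4i shared 28.9% of its 50-base windows with another histone gene, Hist1h1e 32% and Hist1h4h 45.8%, while Hist1h1c shared 8.5%, Hist1h1d 2.2%, and H1f0, H1fx, H3f3a and H3f3b none. The annotated Hist1h2be gene also overlapped Hist1h1e on the same strand.

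In Hoxb7Cre males many clustered genes were higher after volume depletion than in controls, foremost those of linker histones, together with H1f0, H1fx and H3f3b. The summed CPM of the clustered genes was 49.0, 57.3, 83.8 and 83.8 in the 4 controls, 36.8, 45.0, 58.6 and 65.4 after ischemia, and 552.9, 562 and 701.3 after volume depletion. The 3 volume-depleted libraries were far above all others, at 8.84 times the control mean, and the ischemic libraries overlapped the controls. Hist1h1c gave 81.2% ± 1.7 (SD, n = 3) of the clustered sum after volume depletion and 55.0% ± 11.1 (SD, n = 4) in controls. Without Hist1h1c the clustered sum was still 3.84 times the control mean, with no overlap, and after ischemia it was 0.782 times that mean, also with no overlap. The summed CPM of the replication-independent genes was 3437 ± 688 (SD, n = 3) after volume depletion and 641.4 ± 124.9 (SD, n = 4) in controls, most of it H3f3b and H1f0. In bulk RNA such as this, more cells of a type and more RNA per cell cannot be told apart.

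**Figure D2:**
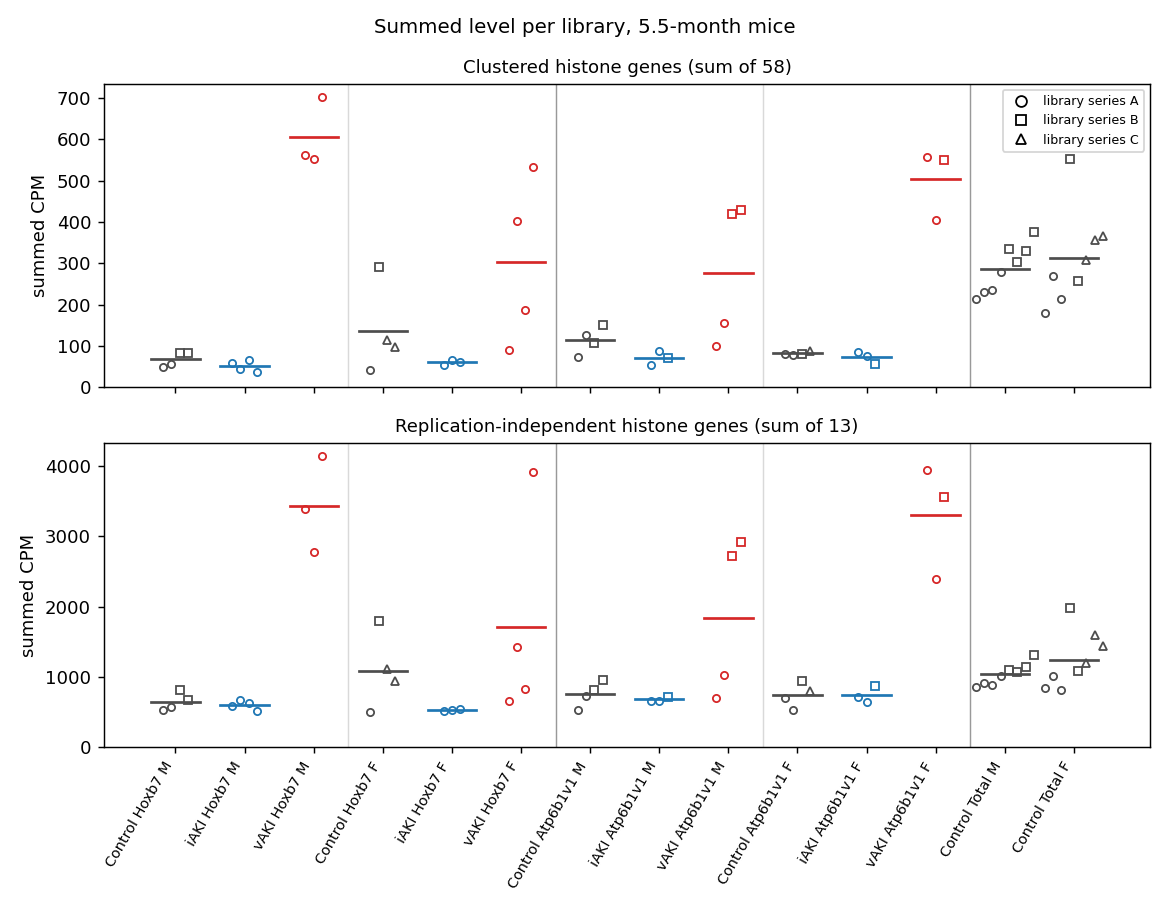
Summed CPM of the clustered (top) and replication-independent (bottom) histone genes in each library of 5.5-month mice, by condition, driver and sex (M males, F females), with bars at group means and symbols for the library series. The volume-depleted Hoxb7Cre males and Atp6b1v1Cre females lie above all their controls in both panels, while the volume-depleted Atp6b1v1Cre males divide by series.

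Calls needed an adjusted p below 0.05 and a change of 1 or more on the log2 scale in either direction, by edgeR's quasi-likelihood test over all 21175 genes. The labels number replicates without saying that each is a separate mouse, so p-values measure the spread between these libraries. Under volume depletion in Hoxb7Cre males 23 of 58 clustered genes were called higher and 0 lower (31 and 0 at an unadjusted p under 0.05, 17 and 0 called by DESeq2). Of all genes tested, 9.61% were called higher and 6.81% lower by edgeR. Here and below, shares of all genes are of edgeR calls, and those at an unadjusted p or by DESeq2 were not counted. The median log2 fold change was 1.83 for the clustered genes and 0 for all genes. Many of the calls rested on few counts, since 5 of the 23 genes had 0 counts in the controls, 4 had 1 to 3, and 9 had a mean of at least 10 counts. With genes at 0 set to the floor of 3 counts over the group, and those at or under it in both groups left out, the median was 1.74. The called genes were 5 of 6 in class H1, 4 of 13 in H2A, 8 of 17 in H2B, 2 of 10 in H3 and 4 of 12 in H4. Of the 13 replication-independent genes 3 were called higher, H1f0, H1fx and H3f3b, and their median log2 fold change was 0.03.

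Of the 6 clustered linker histone genes 5 were called. Hist1h1c was at 24.2, 24.3, 51.5 and 56.0 CPM in control Hoxb7Cre males, 14.7 to 41.0 CPM after ischemia, and 438.6, 462.7 and 575.6 CPM after volume depletion. The volume-depleted libraries did not overlap the others, with a log2 fold change against control of 3.66 (standard error 0.49, adjusted p = 5.84e-06, edgeR). Hist1h1d, which encodes H1.3, was hardly counted in controls, at 0.0494 to 0.281 CPM, and was at 8.14, 8.94 and 11.4 CPM after volume depletion. The groups did not overlap, and the log2 fold change reached 5.74 (standard error 0.74, adjusted p = 4.25e-06, edgeR). Hist1h1e, for H1.4, rose from 0.253 to 0.63 CPM in controls to 5.99, 6.37 and 8.25 CPM (log2 fold change 3.94, standard error 0.41, adjusted p = 4.15e-07, edgeR). Hist1h1b, for H1.5, had no count in the 4 controls and 51 after volume depletion, which is at least 20.3-fold higher.

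The replication-independent linker histones, which are encoded far from the clusters on chromosomes 15 and 6, rose too. H1f0 was at 146.7, 172.9, 189.9 and 211.9 CPM in controls and at 858.5, 1251 and 1543 CPM after volume depletion (log2 fold change 2.76, standard error 0.37, adjusted p = 5.32e-06, edgeR). H1fx, a divergent linker histone also named H1.10, was at 0.0484 to 0.395 CPM in controls and at 6.04, 8.31 and 14.4 CPM after volume depletion. This gave a log2 fold change of 5.56 (standard error 0.74, adjusted p = 5.33e-06, edgeR), and for both genes every volume-depleted library exceeded every control. After ischemia H1f0 was at 88.0, 118.5, 121.4 and 122.8 CPM, below all 4 controls, but it was not called.

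The H3.3 genes parted. H3f3b was at 224.6, 229.8, 294.6 and 393 CPM in controls, 283.8 to 400.1 CPM after ischemia, and 1717, 1958 and 2386 CPM after volume depletion. All volume-depleted libraries were above all controls, with a log2 fold change of 2.83 (standard error 0.40, adjusted p = 1e-05, edgeR). H3f3a was at 28.2, 32.2, 39.9 and 40.01 CPM in controls and at 30.5, 36.7 and 37.7 CPM after volume depletion. These ranges overlapped, with a log2 fold change of 0.00 (standard error 0.19, adjusted p = 1, edgeR), although both genes encode the same protein.

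The other replication-independent genes were of class H2A. H2afz was at 26.2 to 40.5 CPM in controls and 29.3 to 37.7 CPM after volume depletion. H2afv was at 14.9 to 23.1 and 16.6 to 20.9 CPM, H2afy at 51.6 to 59.6 and 53.8 to 57.9 CPM, and H2afy2, for a second macroH2A, at 7.41 to 9.51 and 7.15 to 9.25 CPM. For all 4 the groups overlapped and the log2 fold changes lay between -0.11 and 0.03. H2afx and H2afj, whose H2A.J accumulates in senescent cells, stayed under the limit of 1 for a call, at 0.88 for H2afx (standard error 0.28, adjusted p = 0.0148, edgeR) and 0.69 for H2afj (standard error 0.22, adjusted p = 0.0171, edgeR).

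In the clustered core classes the counted genes were few. Hist3h2a, of class H2A, went from 3.96 to 6.78 CPM in controls to 15.6, 17.4 and 17.6 CPM (log2 fold change 1.64, standard error 0.24, adjusted p = 1.9e-05, edgeR). Hist1h2bc was at 10.7 to 16.7 CPM in controls and at 34.8, 45.2 and 55.2 CPM (log2 fold change 1.61, standard error 0.27, adjusted p = 8.42e-05, edgeR). Both were called with no overlap between groups. Hist3h2ba, the H2B neighbor of Hist3h2a on chromosome 11, was at 0 to 0.328 CPM in controls and at 2.01, 2.61 and 2.96 CPM after volume depletion (log2 fold change 4.26). It had no count in any ischemic Hoxb7Cre male. Hist1h4i, of class H4, was at 0.0843 to 0.741 CPM in controls and at 2.97, 7.2 and 8.97 CPM after volume depletion, with a log2 fold change of 3.82 (standard error 0.58, adjusted p = 2.37e-05, edgeR). Hist2h2be did not pass the fold limit, at 0.86 (standard error 0.25).

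**Figure D3:**
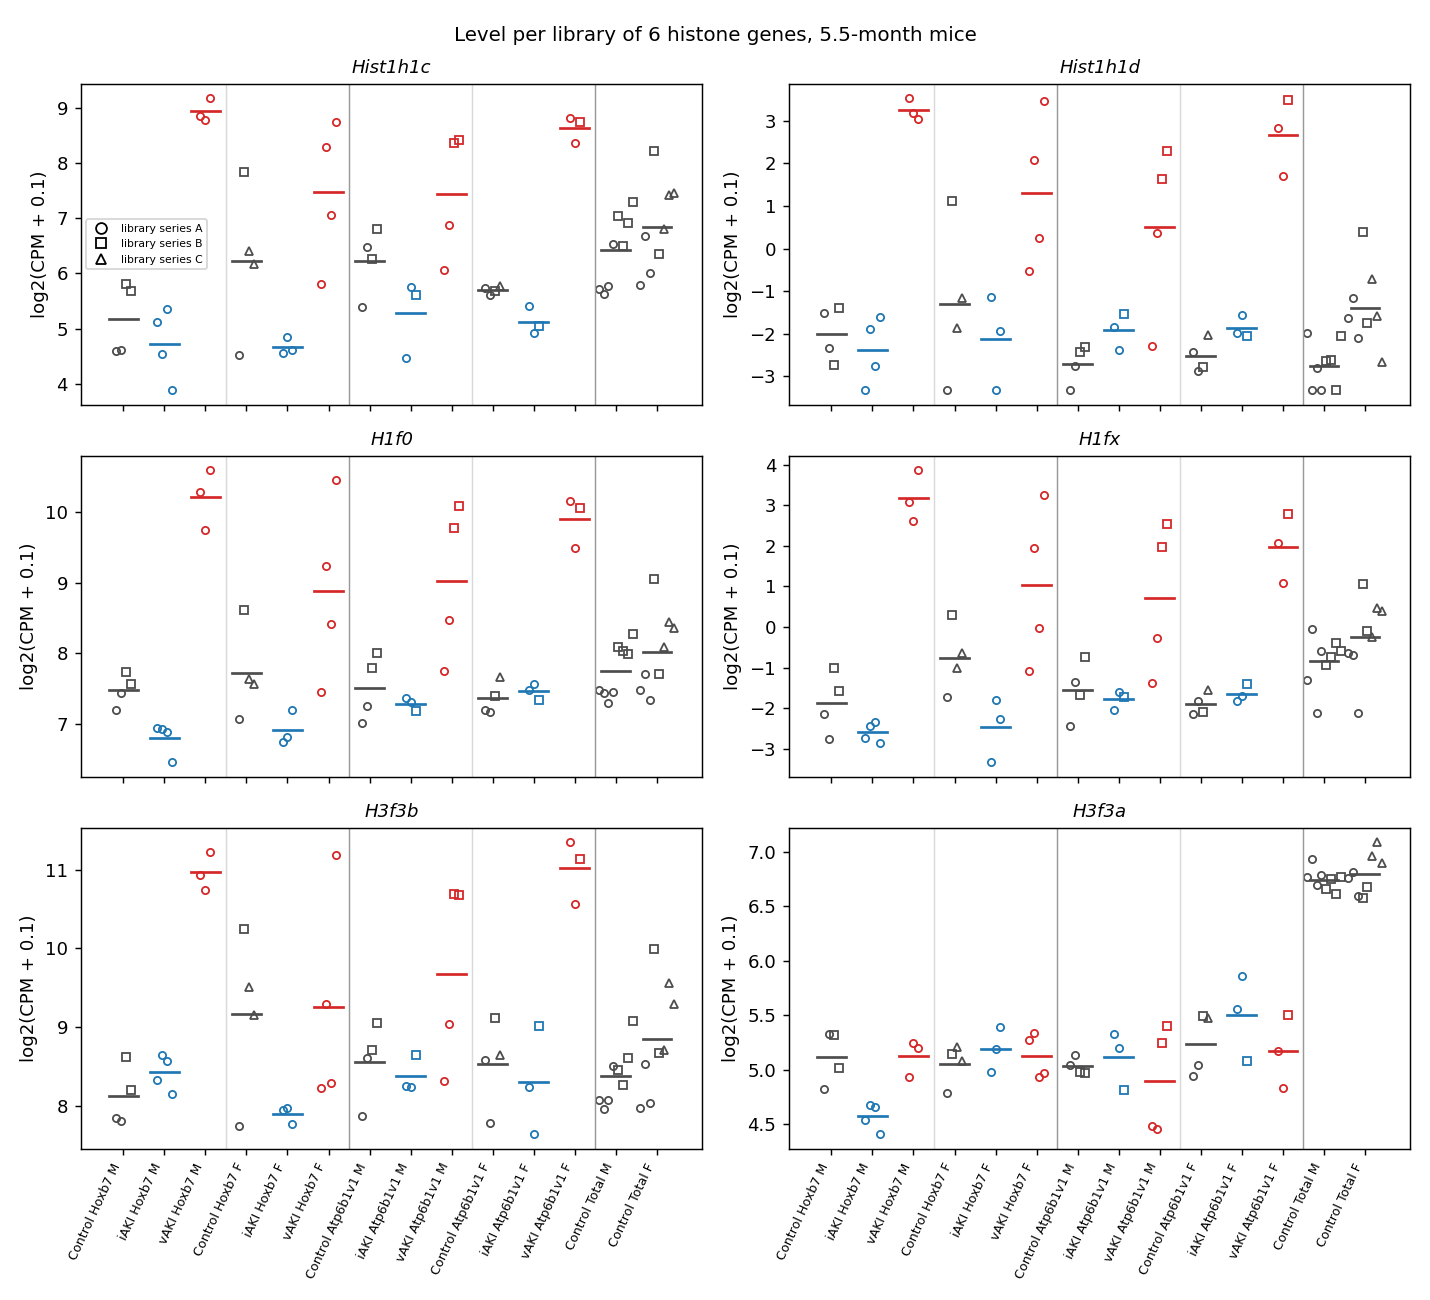
Level of 6 histone genes in each library of 5.5-month mice as log2(CPM + 0.1), by condition, driver and sex, with bars at the means of the log2 values and symbols for the library series. H3f3b and the 4 linker histone genes are above all controls in volume-depleted Hoxb7Cre males, while H3f3a lies between 30.5 and 37.7 CPM there, within its control range.

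Under ischemia in Hoxb7Cre males edgeR called 0 clustered and 0 replication-independent genes (0 higher and 4 lower clustered genes at an unadjusted p under 0.05, and 0 and 4 replication-independent ones). DESeq2 called 1 clustered gene lower. Of all genes tested 1.52% were called higher and 0.784% lower. The median log2 fold change was -0.33 for clustered genes, or -0.60 with genes at 0 set to the floor and 25 genes at the floor in both groups left out, and -0.55 for replication-independent genes. H2afz was at 17.9 to 22.5 CPM, below all 4 controls, with a log2 fold change of -0.77 (standard error 0.14, adjusted p = 0.00237, edgeR), short of the limit of 1.

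The stressors were compared with each other in the same fit, where the controls enter the estimate of the spread but not the contrast. In Hoxb7Cre males 23 clustered and 4 replication-independent genes were called higher under volume depletion than under ischemia and 0 lower, against 8.15% and 6.55% of all genes. Of the 23, 4 had 0 counts after ischemia, 6 had 1 to 3, and 10 had a mean of at least 10 counts. Among the called genes were H1fx and Hist1h1d, with log2 fold changes of 7.05 (standard error 0.84) and 6.24 (standard error 0.77). They had 6 and 11 counts in all ischemic libraries together. Hist3h2ba had no count after ischemia and was at least 77.1-fold higher. In Atp6b1v1Cre males 11 clustered and 3 replication-independent genes were called higher and 0 lower, against 7.16% and 4.39% of all genes. Of the 11, 1 had 0 counts after ischemia, 3 had 1 to 3, and 7 had a mean of at least 10 counts. There H1fx was at 3.72 (standard error 0.80, adjusted p = 0.00135, edgeR), and for Hist1h1c the value was 2.39 (standard error 0.50, adjusted p = 0.00107, edgeR), with volume-depleted libraries above all ischemic ones for both.

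In Atp6b1v1Cre males the volume-depleted libraries divided by library series. The clustered sum was 73.7, 106.3, 126.1 and 149.7 CPM in controls and 54.6, 71.5 and 88.2 CPM after ischemia. After volume depletion it was 98.9 and 156.7 CPM in the libraries of series A and 418.6 and 429.2 CPM in those of series B. The series B libraries stood far above all controls, while of those of series A replicate 1 lay among the controls and replicate 2 just above the highest. In the fit, 6 of 58 clustered genes were called higher and 0 lower, with a median log2 fold change of 1.32, against 3.45% of all genes called higher and 1.70% lower. The 6 were Hist1h1b, Hist1h1c, Hist1h1d, Hist1h1e, Hist1h2be and Hist1h2bg, 4 of them linker histones. One group of counts was low, since 1 of the 6 had 1 to 3 counts in the controls, and 4 had a mean of at least 10 counts. Of the replication-independent genes H1f0, H1fx and H3f3b were called higher. Within series A alone 2 histone genes were called, and within series B alone 15, against 9 in all. Without replicate 1, of series A, 15 were called, and without replicate 6, of series B, 5. The fits within series A and within series B differed in size, and the share of all genes called in each was not counted.

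Hist1h1c was at 42, 76.2, 88.8 and 111.4 CPM in control Atp6b1v1Cre males and at 66.5, 117.4, 329.4 and 342.3 CPM after volume depletion. The groups overlapped, with a log2 fold change of 1.44 (standard error 0.44, adjusted p = 0.0288, edgeR), which was 0.50 within series A and 1.84 within series B. Hist1h1d was at 0 to 0.101 CPM in controls and at 0.106, 1.19, 3.01 and 4.75 CPM after volume depletion, with no overlap. This gave a log2 fold change of 5.06 (standard error 0.85, adjusted p = 0.000571, edgeR), with 4.58 and 5.30 within series A and B. H1f0 was at 215.4, 353.9, 879 and 1086 CPM after volume depletion and at 129.4 to 256.5 CPM in controls (log2 fold change 1.75, standard error 0.34, adjusted p = 0.0017, edgeR), and at 1.01 and 2.05 within the series. H3f3b was at 317.8 and 524.6 CPM in series A, within the controls' 233.2 to 529.5 CPM, and at 1631 and 1647 CPM in series B. Over both series the log2 fold change was at 1.40 (standard error 0.36, adjusted p = 0.0122, edgeR), with 0.44 within series A and 1.79 within series B. H3f3a, H2afz, H2afv, H2afy and H2afy2 had log2 fold changes between -0.18 and 0.04, with overlapping groups.

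Under ischemia in Atp6b1v1Cre males 1 histone gene was called, against 1.14% of all genes higher and 1.68% lower. Hist1h4i was at 0.179, 0.328 and 0.648 CPM after ischemia and at 0.89, 0.921, 2.41 and 2.66 CPM in controls, with no overlap and a log2 fold change of -2.20 (standard error 0.63, adjusted p = 0.0318, edgeR). The call was lost without iAKI replicate 1 or 5, or control replicate 9 or 11.

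The difference between the drivers in the response to volume depletion was tested directly. Of the histone genes 2 were called, both lower in Atp6b1v1Cre, against 1.34% of all genes called higher and 1.60% lower. Hist1h4i differed by -4.20 on the log2 scale (standard error 0.77, adjusted p = 0.00316, edgeR), having risen in Hoxb7Cre and being at 0.634 to 2.43 CPM in volume-depleted Atp6b1v1Cre males, which overlapped its controls. Hist1h1c differed by -2.22 (standard error 0.63, adjusted p = 0.0459, edgeR), a call lost when any 1 of 10 libraries was left out (-1.93 to -2.30). Both calls ended when females were added with sex as a covariate, at -1.84 for Hist1h4i and -0.13 for Hist1h1c. For H1f0, H1fx and H3f3b the differences were -1.01 (standard error 0.48), -2.40 (standard error 1.05) and -1.42 (standard error 0.52), with adjusted p of 0.262, 0.214 and 0.129 by edgeR.

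Females gave values in other libraries. In Atp6b1v1Cre females the clustered sum was 77.9, 81.01, 81.5 and 87.7 CPM in controls, 55.5, 75.8 and 85.5 CPM after ischemia, and 404.8, 550.8 and 557.5 CPM after volume depletion. The volume-depleted libraries lay above all others, at 6.15 times the control mean, and here both library series stood together. Of 58 clustered genes 23 were called higher and 0 lower, with a median log2 fold change of 2.11 (2.28 with genes at 0 set to the floor), against 7.65% and 4.18% of all genes. Of the 23, 1 had no count in the controls and 8 had 1 to 3. By class 4 of 6 H1, 3 of 13 H2A, 8 of 17 H2B, 2 of 10 H3 and 6 of 12 H4 genes were called. Of the replication-independent genes 4 were called higher, H1f0, H1fx, H3f3b and H2afj.

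Hist1h1c was at 48.9 to 54.3 CPM in control Atp6b1v1Cre females and at 329.6, 427.2 and 449.2 CPM after volume depletion (log2 fold change 2.96, standard error 0.55, adjusted p = 0.000243, edgeR). H1f0 was at 144.3 to 203.1 CPM and at 715.8, 1064 and 1137 CPM (2.56, standard error 0.44, adjusted p = 0.00011, edgeR). H3f3b was at 220.1 to 554.8 CPM and at 1516, 2238 and 2606 CPM (2.45, standard error 0.53, adjusted p = 0.000915, edgeR). No groups overlapped in these genes, nor in the next. H2afj was at 8.88 to 13.4 CPM and at 19.6, 32.7 and 63.8 CPM (1.81, standard error 0.29, adjusted p = 6.79e-05, edgeR). H3f3a was at 30.6 to 44.8 CPM in controls and at 28.3 to 45.4 CPM after volume depletion, which overlapped. After ischemia in these females 1 histone gene was called, Hist1h1a, of class H1, lower, with 11 counts in the controls and 0 after ischemia, against 1.00% of all genes higher and 1.59% lower.

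Hoxb7Cre females were more dispersed. The clustered sum was 42.3, 97.2, 114.1 and 290.7 CPM in controls, the last being replicate 6, and 91.5, 186.9, 401.3 and 532.7 CPM after volume depletion. These groups overlapped. No histone gene was called by edgeR under volume depletion, while 20 clustered and 2 replication-independent genes were higher at an unadjusted p under 0.05 and DESeq2 called 4 and 2 higher. Only 0.0756% of all genes were called higher and 0.118% lower by edgeR. The shares of all genes at an unadjusted p under 0.05 or by DESeq2 were not counted, so these counts have no background. The median log2 fold change of the clustered genes was 1.36, and that of H3f3b was 0.38 (standard error 0.48, adjusted p = 0.825, edgeR). Without control replicate 6, 5 histone genes were called, and without volume-depleted replicate 1, 7. The share of all genes called in each of these fits was not counted.

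Under ischemia in Hoxb7Cre females Hist1h1c and H2afx were called lower, against 1.52% of all genes higher and 4.18% lower. Hist1h1c was at 22.96, 71.5, 85.03 and 227.1 CPM in controls and at 23.5, 24.4 and 28.9 CPM after ischemia, with a log2 fold change of -2.01 (standard error 0.58, adjusted p = 0.0198, edgeR). H2afx was at 6.08, 15.5, 17.2 and 19.0 CPM in controls and at 5.08, 6.59 and 7.26 CPM after ischemia (-1.21, standard error 0.37, adjusted p = 0.0271, edgeR). For both genes control replicate 1 was as low as the ischemic libraries. Neither was called without control replicate 6, nor without ischemic replicate 2 or 3. Fos, an immediate early gene chosen after its values were seen, was lower too, at -4.14 (standard error 1.02, adjusted p = 0.00854, edgeR). Its level was 4.93, 84.5, 120.3 and 132.7 CPM in these controls, the lowest in replicate 1, and 2.81 to 6.4 CPM after ischemia, and its part in the histone values was not tested.

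The response to volume depletion was compared between the sexes. In Hoxb7Cre 3 histone genes were called with a larger response in males, against 5.48% of all genes called higher and 5.35% lower. Hist1h1c differed by 2.48 on the log2 scale (standard error 0.73, adjusted p = 0.0202, edgeR) and H3f3b by 2.45 (standard error 0.71, adjusted p = 0.0186, edgeR). The third, Hist1h2ba, a testis H2B gene, had at most 4 counts in any of the groups, so that its fitted difference is no bound. Without control replicate 6, Hist1h1c differed by 1.71 and no histone gene was called, nor was any without volume-depleted female replicate 1 or 3. Fos differed between the sexes as well, by 4.04 (standard error 1.17, adjusted p = 0.0184, edgeR). In Atp6b1v1Cre 0 histone genes were called by edgeR or DESeq2, with 5 lower in males at an unadjusted p under 0.05, against 0% of all genes higher and 0% lower.

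**Figure D4:**
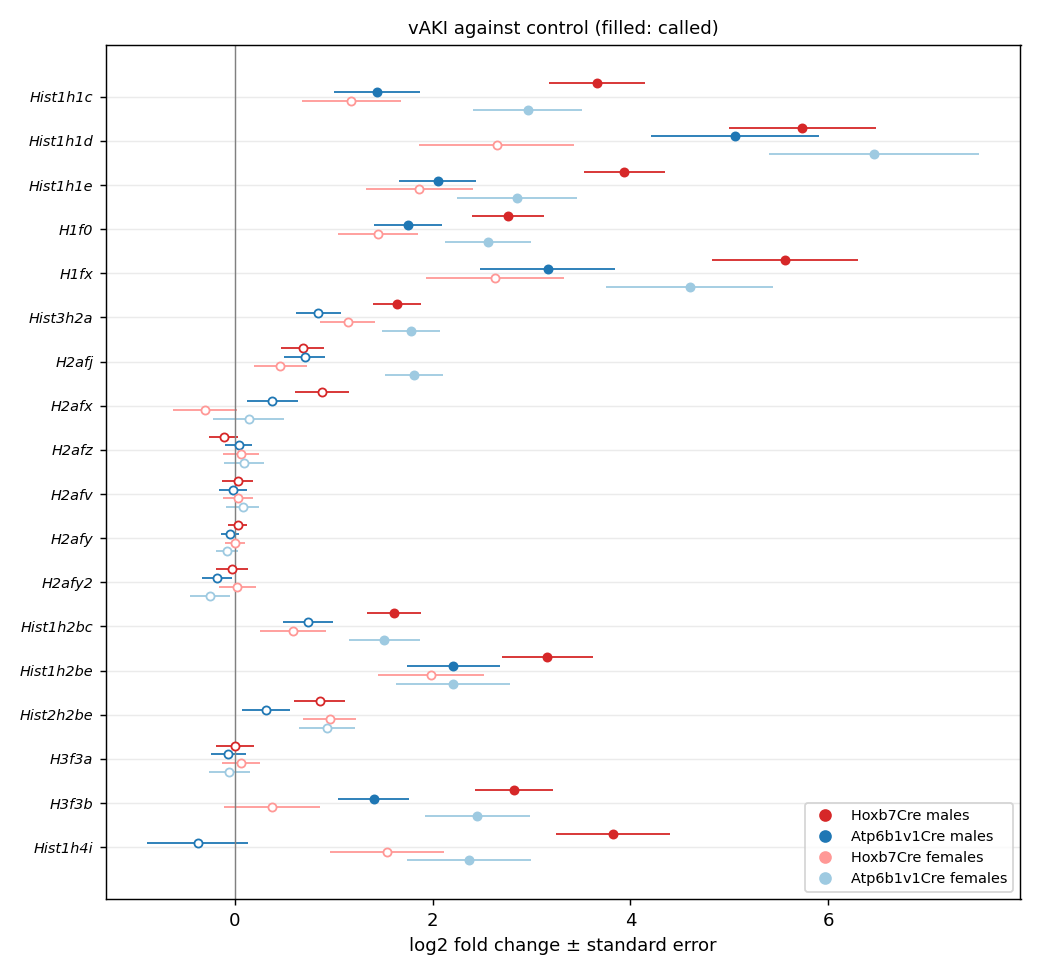
Log2 fold changes of 18 histone genes under volume depletion against control, with their standard errors, in 4 groups of driver and sex, with filled points for called genes. The 5 linker histone genes were called in 3 of the 4 groups, while H2afz, H2afv, H2afy, H2afy2 and H3f3a lay between -0.25 and 0.10 in all 4.

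In 3 of the 4 groups, which share no library, 9 histone genes were called higher under volume depletion: Hist1h1b, Hist1h1c, Hist1h1d, Hist1h1e, Hist1h2be, Hist1h2bg, H1f0, H1fx and H3f3b. Of these 9, 6 were linker histones. Among all genes tested, 9.61% were called higher in Hoxb7Cre males, 3.45% in Atp6b1v1Cre males and 7.65% in Atp6b1v1Cre females. The share of all genes called in all 3 was not counted. Of 30 genes of DNA replication and mitosis, 5 were called higher and 1 lower in Hoxb7Cre males under volume depletion (Mcm10, Cenpa, Mcm5 and Mcm2 among the 5), 0 in Atp6b1v1Cre males by edgeR or DESeq2 (3 higher and 3 lower at an unadjusted p under 0.05), and 1 higher and 1 lower in Atp6b1v1Cre females. Their median log2 fold changes were 0.02, 0.06 and 0.17, against 1.83, 1.32 and 2.11 for the clustered histone genes. Of 19 genes for histone mRNA transcription and 3′ processing, none was called in the males by edgeR or DESeq2 (3 higher and 6 lower in Hoxb7Cre, and 3 and 2 in Atp6b1v1Cre, at an unadjusted p under 0.05), and Cpsf2 was lower in the females. Of 20 histone chaperone genes 1 was called, Chaf1b, higher in Hoxb7Cre males.

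Markers of cell types moved in the same comparisons. Of 13 collecting duct markers 7 were called lower in Hoxb7Cre males, 2 in Atp6b1v1Cre males and 4 in Atp6b1v1Cre females under volume depletion, with 0 higher. Of 15 markers of other kidney cells 3, 2 and 1 were called lower in these groups. Of all genes tested, 6.81%, 1.70% and 4.18% were called lower in them and 9.61%, 3.45% and 7.65% higher. Fos moved in the same groups by edgeR, at 3.72 in Hoxb7Cre males (standard error 0.60, adjusted p = 4.65e-05), 2.91 in Atp6b1v1Cre males (standard error 0.56, adjusted p = 0.00173) and 4.47 in Atp6b1v1Cre females (standard error 0.92, adjusted p = 0.00058) on the log2 scale. In Hoxb7Cre females Fos was at -0.32 (standard error 0.77, adjusted p = 0.942). Of 13 tested RNAs without a poly(A) tail 2 were called lower in Hoxb7Cre males, Rpph1 and Snord118, 0 in Atp6b1v1Cre males by edgeR or DESeq2 (2 higher at an unadjusted p under 0.05), and 2 higher in Atp6b1v1Cre females. Of 14 leukocyte and red cell markers, Cd68 was called higher and 2 were lower in Hoxb7Cre males, Cd3e was lower in Atp6b1v1Cre males, and Cd68 was higher and 2 were lower in Atp6b1v1Cre females. The part of these changes in the histone values was not tested.

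At baseline, the summed TMM-normalized CPM of the clustered genes was lower in the pulldowns than in total kidney RNA, while the replication-independent sum overlapped. The clustered sum was 42.3 to 290.7 CPM (median 72.8) in 10 Hoxb7Cre control pulldowns, 73.7 to 161.4 CPM (median 87.7) in 11 Atp6b1v1Cre control pulldowns and 179.6 to 552.2 CPM (median 302.2) in 21 libraries of total kidney RNA. The Atp6b1v1Cre pulldowns lay below all total libraries, and of the Hoxb7Cre pulldowns replicate 6 alone overlapped them. Without Hist1h1c the sums were 0.156 and 0.166 times that of total RNA, with no overlap. Most of that remaining sum in total RNA was 1 gene, Hist1h2bc, whose values are given below. The replication-independent sum was 0.718 and 0.692 times that of total RNA, with overlapping ranges. These values depend on the TMM scaling. By plain library totals that sum was 515.1 to 2133 CPM in Hoxb7Cre pulldowns, 552.1 to 1547 in Atp6b1v1Cre pulldowns and 664 to 1832 in total RNA. The clustered sum was then 43.73 to 345.4, 77.33 to 188.3 and 154.5 to 511.8 CPM, so that both pulldowns overlapped total RNA. As a share of all counts, histone genes together took 0.105% ± 0.056 (SD, n = 10) and 0.102% ± 0.031 (SD, n = 11) in the pulldowns and 0.12% ± 0.035 (SD, n = 21) in total RNA. Hist1h1c made up 62.3% ± 11.46 (SD, n = 10) and 66.9% ± 6.4 (SD, n = 11) of the clustered sum in pulldowns and 35.3% ± 8.1 (SD, n = 21) in total RNA.

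Of 58 clustered genes 5 were called higher and 13 lower in the Hoxb7Cre pulldown than in total RNA, against 14.6% and 17.9% of all genes, and of the 13 replication-independent genes 1 was higher and 5 lower. In the Atp6b1v1Cre pulldown 1 clustered gene was higher and 17 lower, against 11.3% and 16.4% of all genes, and 5 replication-independent genes were lower. The comparisons share the 21 total libraries, and possible pairs of pulldown and total libraries were not fitted. The median of all genes was at 0.11 on the log2 scale in both, and that of the clustered genes at -0.41 and -0.62. The called H4 genes were 2 higher and 4 lower in Hoxb7Cre, and 7 lower in Atp6b1v1Cre. Many calls rested on few counts, since 5 of the 18 clustered genes called in each pulldown had a mean of at least 10 counts.

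The lowest of the clustered genes was Hist1h4h, whose stem-loop stands 46 bases before the end of its model. It was at 0 to 0.395 CPM in Hoxb7Cre pulldowns (median 0.13), 0.0838 to 0.253 CPM in Atp6b1v1Cre pulldowns (median 0.159) and 0.813 to 5.01 CPM in total RNA (median 1.62). With no overlap, it differed by -3.76 on the log2 scale for Hoxb7Cre (standard error 0.36, adjusted p = 5.76e-13, edgeR) and by -3.72 for Atp6b1v1Cre (standard error 0.34, adjusted p = 1.92e-13, edgeR). Hist1h2bc was at 7.64 to 36.5 CPM (median 13.8) and 13.3 to 20.4 CPM (median 16.5) in the pulldowns and at 100.3 to 230.4 CPM (median 156.2) in total RNA. Its ranges did not overlap either, with a log2 fold change of -3.34 for Hoxb7Cre (standard error 0.16, adjusted p = 5.6e-23, edgeR) and of -3.27 for Atp6b1v1Cre (standard error 0.15, adjusted p = 1.78e-23, edgeR). Hist1h4i was also lower in both, at -2.67 (standard error 0.33) and -1.81 (standard error 0.29), with overlapping ranges. Hist1h1c was not called, at -0.85 for Hoxb7Cre (standard error 0.30, adjusted p = 0.0109, edgeR) and -0.62 for Atp6b1v1Cre (standard error 0.28, adjusted p = 0.0548, edgeR).

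Among replication-independent genes H3f3a and H3f3b parted here as well. H3f3a was at 27.5 to 40.01 CPM (median 33.8) and 30.6 to 44.8 CPM (median 35) in the pulldowns and at 91.5 to 136.2 CPM (median 108.5) in total RNA. The groups did not overlap, with log2 fold changes of -1.64 for Hoxb7Cre (standard error 0.07, adjusted p = 1.47e-24, edgeR) and -1.55 for Atp6b1v1Cre (standard error 0.07, adjusted p = 2.27e-24, edgeR). H3f3b was at a median of 359.9 and 400.1 CPM in the pulldowns and 370.8 CPM in total RNA, with log2 fold changes of 0.08 (standard error 0.23) and 0.15 (standard error 0.22) and overlapping ranges. H2afj, at 10.2 to 21.3 CPM (median 12.4) and 8.88 to 14.9 CPM (median 12.2) in the pulldowns and 54.3 to 217.9 CPM (median 90.4) in total RNA, was lower in both with no overlap, at -2.74 (standard error 0.18) and -3.00 (standard error 0.17). H2afz and H2afv were lower too, at -1.27 and -1.52 in the Hoxb7Cre pulldown and -1.33 and -1.42 in the Atp6b1v1Cre pulldown, and H1fx was at -1.12 and -1.27. H1f0 was not called, at -0.36 in each.

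**Figure D5:**
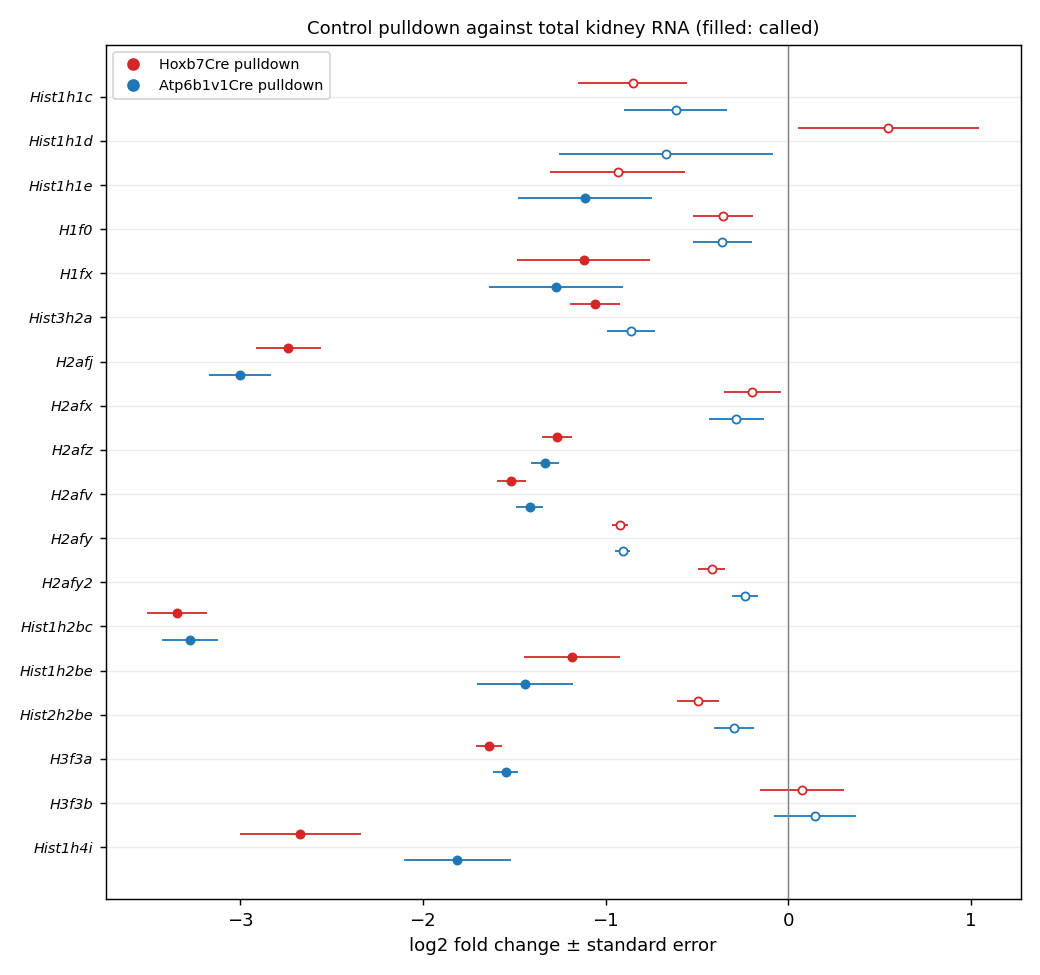
Log2 fold changes of 18 histone genes in control pulldowns against total kidney RNA, with their standard errors, for both drivers, with filled points for called genes. Hist1h2bc and H2afj are lowest among the 18, at -2.74 to -3.34, and H3f3b is at 0.08 and 0.15.

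Between the pulldowns of the drivers 2 histone genes were called, Hist2h2bb, an H2B gene, and Hist1h4n, of class H4, both lower in Atp6b1v1Cre, against 2.58% of all genes higher and 1.53% lower. They had a mean of 5.29 and 0.524 counts per library, and Hist1h4n had 0 counts in the Atp6b1v1Cre pulldowns and 11 in the Hoxb7Cre ones. Without Hoxb7Cre pulldown replicate 6 and total RNA replicate 12, 26 histone genes were called in the Hoxb7Cre pulldown against total RNA, 23 in the Atp6b1v1Cre pulldown and 3 between the drivers, against 24, 23 and 2 with them.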

How the data were processed

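Pulled-down RNA and total kidney RNA were analysed from the read counts per gene that the authors deposited for 69 libraries (12618062 to 30305464 counts each). By the submitters' processing notes they used CASAVA 1.8.2, Trimmomatic 0.36, STAR 2.5.3a and HTSeq 0.6.1p2 with mm10. RNA was selected by poly(A), and HTSeq at default settings drops reads that align to several places and counts by strand. Whether the libraries kept strand is not given in the sources used here.

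Genes with at least 2 counts over 69 libraries were tested in R 4.3.3 with edgeR 4.0.16 (quasi-likelihood, TMM, Benjamini-Hochberg over 21175 genes), with DESeq2 1.42.0 as an alternative. Males were fitted as 22 pulldowns, both sexes as 43, and controls as 42 with sex as a covariate and no pairing. Calls needed an adjusted p below 0.05 and 1 or more on the log2 scale. Levels are CPM of TMM-normalized library sizes over all 69 libraries. Floors and counts under 3 cover counting error only. Sequences came from GENCODE vM21 transcripts and RefSeq promoters, and figures from Python 3.11.15 with matplotlib 3.10.9. The scripts were tested on simulated counts.

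Genes named with values were all replication-independent ones, the 3 highest of each clustered class and the 5 called genes of largest fold change with a mean of 10 counts in each comparison. Others were chosen after their values were seen. The members and lists were chosen with earlier results of these data known. Alternatives were other normalizations, filters, covariates and samples, and those added after seeing the data are named as such.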

Additional observations from a re-analysis of the deposited data

Results flagged for a closer look

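In 98 groups examined, 4 held a library that stood apart from the rest, and chance alone flags about 1 in 20 groups. Each group examined was 1 gene, or the clustered or replication-independent sum, in 4 or more libraries of 1 group. H1f0 was at 88 CPM in iAKI Hoxb7 Pulldown replicate 7 (male), with 118 to 123 CPM in the other ischemic males. Hist1h1d was at 2.06 CPM in Control Hoxb7 Pulldown replicate 6 (female), with 0 to 0.347 CPM in the other controls. H3f3b was at 2330 CPM in vAKI Hoxb7 Pulldown replicate 5 (female), with 299 to 629 CPM in the others. H2afz was at 39.5 CPM in vAKI Hoxb7 Pulldown replicate 2 (female), with 29.8 to 31 CPM in the others.

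The responses to volume depletion differed between groups, by a test of the difference, in 5 cases. Between drivers in males, Atp6b1v1Cre against Hoxb7Cre, Hist1h4i differed by -4.2 and Hist1h1c by -2.22 on the log2 scale. Of all genes, 1.34% were called higher and 1.60% lower in that test. Both calls ended when females were added with sex as a covariate. Between the sexes in Hoxb7Cre, males against females, H3f3b differed by 2.45, Hist1h1c by 2.48 and Hist1h2ba by 6.16, the last from at most 4 counts in a group. Of all genes, 5.48% were called higher and 5.35% lower in that test. No histone gene was called in it without control replicate 6.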

How the results depend on the processing

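Of 1398 single-gene values under alternatives, 1291 kept their direction and side of the threshold, 2 reversed, and the rest kept their direction but missed the threshold. Of 136 counts of called histone genes under alternatives other than leaving out 1 library, 35 moved by over 1.5 times. The causes were not tested, except that filterByExpr tests fewer genes and a series or a sex alone holds fewer libraries.

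For males the counts were as follows. Hoxb7Cre iAKI gave 0, but 2 without the fold limit, 1 with DESeq2 and 1 in series A. Hoxb7Cre vAKI gave 26, but 13 with filterByExpr, which left 12 clustered genes to test. vAKI against iAKI gave 27 in Hoxb7Cre and 16 with filterByExpr, and 14 in Atp6b1v1Cre and 30 with both sexes. Atp6b1v1Cre iAKI gave 1, but 0 with both sexes, in series A and in series B. Atp6b1v1Cre vAKI gave 9, but 16 with 25 males, 29 with both sexes, 2 in series A and 15 in series B. The driver difference gave 2, but 8 with series as a covariate and 0 with both sexes. Series B alone was chosen after seeing the data, as was leaving out Hoxb7Cre control replicate 6 with total RNA replicate 12.

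Of 8 same-numbered pairs of libraries, 1 was correlated over 0.1 (-0.45 to 0.209). All 8 joined different treatments, so they cannot exclude a pairing of libraries. Control pulldowns were not examined against total RNA libraries in this way. With the number as a replicate block the counts were 1 and 4 under iAKI in Hoxb7Cre and Atp6b1v1Cre, 13 and 12 under vAKI, 22 and 2 for vAKI against iAKI and 0 for the driver difference. In Atp6b1v1Cre males under that block, vAKI against iAKI, Hist1h1d was at -0.71 and Hist3h2ba at -0.18.

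For females, Hoxb7Cre iAKI gave 2, but 0 with series as a covariate and 0 in females alone. Hoxb7Cre vAKI gave 0, but 6 with DESeq2, 3 with filterByExpr and 2 with series. Atp6b1v1Cre iAKI gave 1, but 2 without the fold limit, 2 with DESeq2, 0 with filterByExpr and 0 in females alone. The sex difference in Hoxb7Cre gave 3, but 6 with series. In controls filterByExpr gave 10 and 10 against total RNA, from 24 and 23, and 0 between drivers, from 2, with 1 by DESeq2 and 1 in females alone.

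With each library left out in turn, the counts ran from 0 to 0 (Hoxb7Cre iAKI), 22 to 25 (Hoxb7Cre vAKI), 0 to 1 (Atp6b1v1Cre iAKI), 5 to 15 (Atp6b1v1Cre vAKI), 25 to 29 and 10 to 18 (vAKI against iAKI), and 1 to 4 (driver difference, where 10 libraries gave 1 and vAKI Atp6b1v1 replicate 7 gave 4). In females they ran from 0 to 4 (Hoxb7Cre iAKI, 4 without control replicate 1, and 1 without iAKI replicate 1 or control replicate 9 or 10), 0 to 7 (Hoxb7Cre vAKI), 0 to 2 (Atp6b1v1Cre iAKI, 2 without iAKI replicate 6 and 0 without iAKI replicate 2 or 3 or control replicate 7), 21 to 27 (Atp6b1v1Cre vAKI), 0 to 11 (sex difference in Hoxb7Cre, 11 without female vAKI replicate 5, 8, 6 and 1 without control replicate 1, 4 and 3) and 0 to 0 (in Atp6b1v1Cre). Scaled by plain library totals, the clustered sum of Atp6b1v1Cre control females moved to 91.6 CPM, and the replication-independent sums of Atp6b1v1Cre iAKI males and Hoxb7Cre iAKI females to 822.6 and 571.7 CPM.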
